A study of Arabidopsis thaliana with 4 samples.

Results

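Of 27826 loci measured on the arrays, 9 genes of the salicylic acid response are described here in Arabidopsis thaliana rosettes: the receptor genes NPR1 (AT1G64280), NPR3 (AT5G45110) and NPR4 (AT4G19660), the genes NIMIN1 (AT1G02450) and NIMIN2 (AT3G25882) for proteins that bind NPR1, and the output genes PR1 (AT2G14610), PR2 (AT3G57260), PR5 (AT1G75040) and AIG1 (AT1G33960). They were chosen by locus for their place in the pathway, with earlier results of these data known. All 9 have a probe set, the group of array probes that reads 1 locus. Levels were compared between rosettes labelled 35S:∆13RAP2.12 and wild-type rosettes. The output genes lay higher in the transgenic rosettes on every array, AIG1 and PR1 by 28.8-fold in the mean, PR2 by 2.60-fold and PR5 by 1.63-fold. Only AIG1 passed the test across all probe sets. The size for PR1 rests on wild-type arrays that lay far apart, and the lower of these values may be background. None of the receptor genes passed, and their 95% intervals lay within a 2-fold change in either direction. So did the intervals of 82.6% of all probe sets.

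Salicylic acid is a plant hormone that rises on attack by pathogens that feed on living cells. NPR1 binds it and acts with TGA transcription factors as a co-activator of defence genes, whereas NPR3 and NPR4 bind it and repress such genes in its absence. NIMIN1 and NIMIN2 bind NPR1 and modulate its action. PR1, a small secreted protein, PR2, a beta-1,3-glucanase, and PR5, a thaumatin-like protein, are the usual markers of the response, and AIG1 encodes a GTP-binding protein found through its induction by the bacterial effector AvrRpt2.

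All plants had the Columbia-0 background and no stress treatment is named. The control group was the wild type (2 arrays). The other group carried 35S:∆13RAP2.12 (2 arrays), a RAP2.12 construct driven by the 35S promoter of a plant virus, which works in most cell types. RAP2.12 is an ethylene response factor that is broken down in the presence of oxygen through its amino-terminal end, and the name denotes a form that lacks this end. The labels do not say how many independent transgenic lines were used or whether the replicates were separate plants. Rosettes were 4 weeks old, grown at 22 °C in 12 h of light and at 18 °C at night, and were harvested 10 h into the light period. The design text names 6 samples, of which 4 were analysed here.

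Values are deposited log2 levels from RMA, in which a difference of 1 is a 2-fold change, and a low value may be background because no detection calls were used. Array medians were 7.88 to 7.91. Of all probe sets, 2.17% differed at an adjusted p below 0.05, and the median log2 difference over all of them was -0.04. RAP2.12 itself was at 11.07 and 11.16 on the wild-type arrays and at 11.28 and 11.06 on the transgenic arrays (difference 0.06, adjusted p = 0.879), so its level did not set the groups apart. No source used here says which part of that transcript the probes read. Of 5 rosette markers none was called. RBCS1A, a Rubisco small subunit, had wild-type and transgenic means of 13.04 and 13.02. CA1, RCA and GLDP1 had wild-type means of 12.37, 12.34 and 12.58. LHCB2.1 was much lower, with means of 7.79 and 7.74, below the median of wild-type means of 7.88. The root hair genes RHD6, EXPA7, PRP3 and COBL9 had wild-type means below the lower quartile of 4.76, and CASP1, a gene of the root endodermis, was at 6.56. AG, a floral organ identity gene, was at 6.27 and 6.60 in the wild type and at 5.22 and 5.45 in the transgenic rosettes (adjusted p = 0.0690). The other 4 floral markers, AP1, AP3, PI and SEP3, had wild-type means below the same quartile, and the part of floral tissue in the results below was not tested.

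NPR1, the co-activator, was at 10.04 and 10.03 on the wild-type arrays and at 10.13 and 10.20 on the transgenic arrays, those labelled 35S:∆13RAP2.12. The transgenic arrays stood just above the wild-type ones, by 0.0956 between the nearest values. The log2 difference was 0.13 (SE 0.11, 95% interval -0.16 to 0.43, adjusted p = 0.636).

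NPR3, a co-repressor, was at 10.11 and 9.88 in the wild type and at 10.24 and 10.19 in the transgenic rosettes. Its groups did not overlap either, but they were only 0.08 apart at the nearest arrays, less than the 0.24 between the wild-type arrays. The difference was 0.22 (SE 0.14, 95% interval -0.14 to 0.58, adjusted p = 0.505).

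NPR4, the other co-repressor, was at 10.73 and 10.42 in the wild type and at 10.37 and 10.46 in the transgenic rosettes. Here the groups overlapped, and wild type replicate 1 was the highest array. The difference was -0.16 (SE 0.15, 95% interval -0.56 to 0.25, adjusted p = 0.678). Thus none of the 3 receptor genes passed, and each interval left room for changes of less than 2-fold only. Intervals this narrow were common, at 82.6% of all probe sets.

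NIMIN1 was the only gene of the 9 with both transgenic arrays below the wild type. It was at 8.83 and 8.81 in the wild type and at 8.48 and 8.60 in the transgenic rosettes. The difference of -0.28 did not pass (SE 0.12, 95% interval -0.59 to 0.03, adjusted p = 0.354).

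NIMIN2 lay on the opposite side, at 10.05 and 10.45 in the wild type and at 10.68 and 10.85 in the transgenic rosettes. All transgenic values were above all wild-type values, although the wild-type arrays were 0.39 apart. The difference was 0.51, or 1.43-fold, and did not pass after adjustment (SE 0.18, 95% interval 0.04 to 0.99, unadjusted p = 0.0399, adjusted p = 0.281). Whether NIMIN1 and NIMIN2 differed from each other in their response was not tested.

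**Figure D1:**
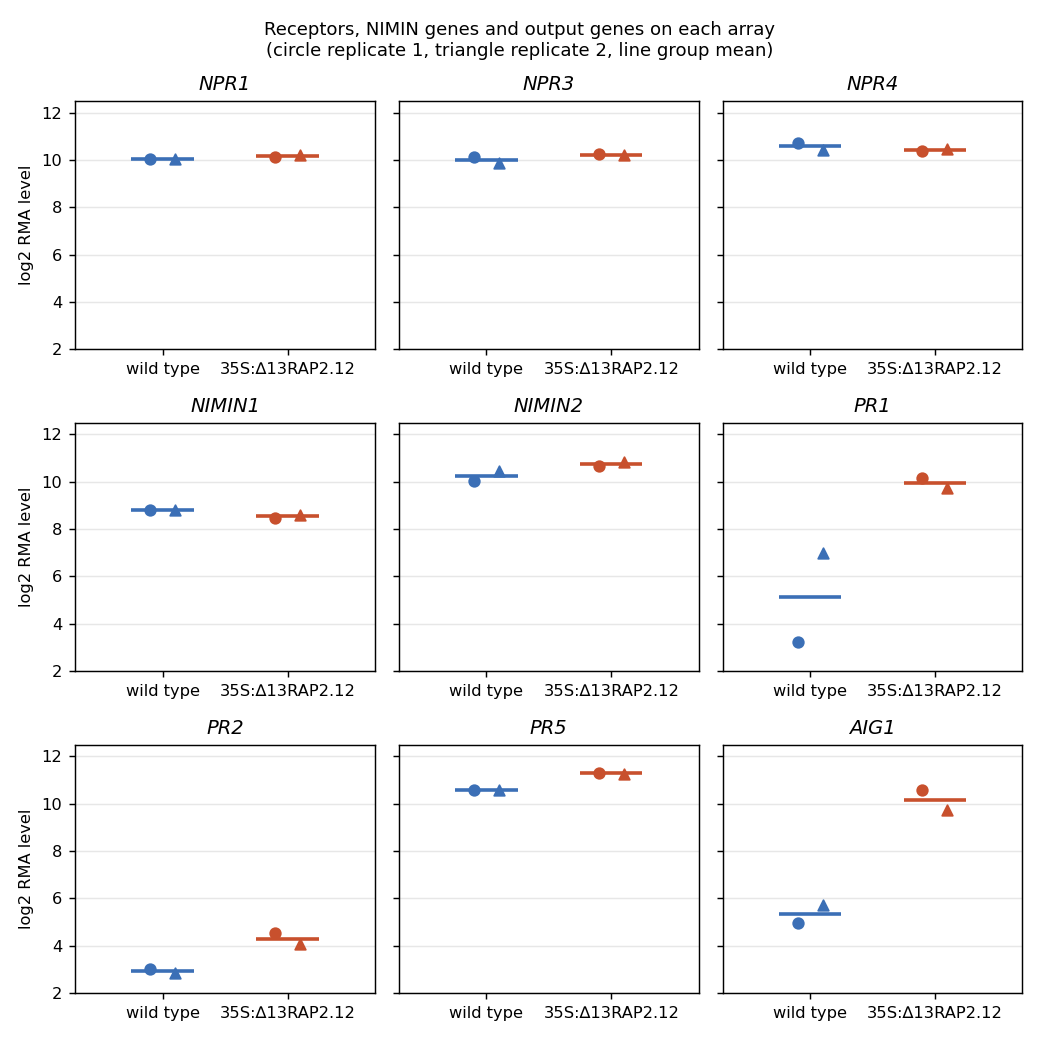
Log2 RMA level (vertical axis) of each of the 9 genes on the wild-type arrays (blue) and the transgenic arrays (red, labelled 35S:∆13RAP2.12), with circles for replicate 1, triangles for replicate 2 and lines for group means. The receptor and NIMIN genes stay near one level, AIG1 moves from about 5.33 to 10.17 in the mean, and the wild-type points of PR1 lie far apart, at 3.22 and 7.00.

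AIG1 rose most clearly. It was at 4.94 and 5.71 in the wild type and at 10.60 and 9.75 in the transgenic rosettes, so that the lowest transgenic array exceeded the highest wild-type array by 4.04. Group means were 5.33 ± 0.55 (SD, n = 2) and 10.17 ± 0.60 (SD, n = 2). AIG1 thus gained 4.85 on the log2 scale (SE 0.40, 95% interval 3.80 to 5.89, adjusted p = 0.0150), and 0.126% of all probe sets had a difference at least as large. In bulk rosettes, more cells with the transcript and more transcript per cell cannot be told apart. The call depended on having all wild-type arrays. Without wild type replicate 1 the difference was 4.46 (adjusted p = 0.143) and without wild type replicate 2 it was 5.23 (adjusted p = 0.124). These fits called 0 and 29 probe sets in all.

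PR1 had a difference of the same size with a much larger error. It was at 3.22 and 7.00 on the wild-type arrays and at 10.16 and 9.75 on the transgenic arrays. The value of 3.22 lay under the wild-type lower quartile of 4.76 and may be background, so the exact size of the difference is not determined. Even the higher wild-type array was 2.75 below the lowest transgenic array, so the groups did not overlap. Means were 5.11 ± 2.67 (SD, n = 2) and 9.96 ± 0.29 (SD, n = 2), and the difference was 4.85 (SE 1.27, 95% interval 1.49 to 8.20). It did not pass after adjustment (unadjusted p = 0.0146, adjusted p = 0.181). It passed when the prior variance followed the level (adjusted p = 0.0191). The size of the difference rested on which wild-type array was used, at 2.96 without wild type replicate 1 (adjusted p = 0.120) and 6.74 without wild type replicate 2 (adjusted p = 0.0668).

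The gap of 3.78 between the wild-type arrays for PR1 was the largest of all 27826 probe sets. The median gap over all probe sets was 0.18, and 95% had a gap below 0.71. The transgenic arrays differed by 0.41 for PR1. The other output genes did not share this gap in size. Wild type replicate 2 minus replicate 1 was 0.77 for AIG1, -0.16 for PR2 and -0.03 for PR5. Over the 9 genes, replicate 2 was the higher wild-type array for 3, PR1, AIG1 and NIMIN2, against 50.4% of all probe sets. Among 9 other genes induced by salicylic acid, 6 were higher on replicate 2, with a median difference of 0.04. Among 11 genes of its synthesis and regulators 7 were, with a median of 0.04. The shift was larger among 9 WRKY transcription factors of the response, where 8 were higher on replicate 2, with a median of 0.24. Over all probe sets the median was 0.003. Whether PR1 shared a cause with these genes was not tested.

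**Figure D2:**
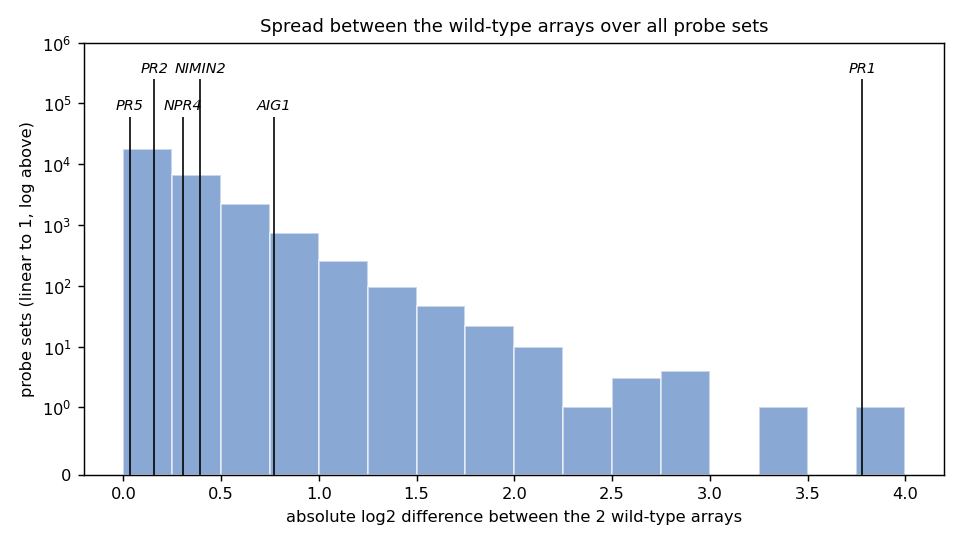
Number of probe sets (vertical axis, linear up to 1 and logarithmic above) by the absolute log2 difference between the 2 wild-type arrays (horizontal axis), with 6 of the genes marked by vertical lines. PR1 is alone in the last bin at 3.78, and AIG1, at 0.77, lies beyond most probe sets.

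PR2 was near the floor of the scale in the wild type, at 3.00 and 2.84, and at 4.51 and 4.08 in the transgenic rosettes. The transgenic arrays were clearly separate from the wild-type ones, with 1.08 between the nearest values. Means were 2.92 ± 0.11 (SD, n = 2) and 4.30 ± 0.31 (SD, n = 2), and both lay below the wild-type lower quartile of 4.76, so the exact size of the difference is not determined. The difference of 1.38 missed the threshold (SE 0.19, 95% interval 0.88 to 1.88, unadjusted p = 0.00110, adjusted p = 0.0505). It passed when each array was centred on its median (adjusted p = 0.0478), and with a prior variance that followed the level (adjusted p = 0.0128). With quantile normalization applied again it did not pass (adjusted p = 0.0814). Without replicate 1 and replicate 2 of the transgenic arrays it was 1.16 (adjusted p = 0.121) and 1.60 (adjusted p = 0.0545).

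PR5 had tight replicates, at 10.60 and 10.56 in the wild type and at 11.29 and 11.27 in the transgenic rosettes. Its groups were 0.68 apart, many times the 0.03 and 0.02 between arrays of the same group. The difference of 0.70 did not pass after adjustment (SE 0.11, 95% interval 0.41 to 0.996, unadjusted p = 0.00197, adjusted p = 0.0683). It passed when low probe sets were left out (adjusted p = 0.0353) and with a prior variance that followed the level (adjusted p = 0.000931). It did not pass with arrays centred on their medians (adjusted p = 0.0743) or with quantile normalization applied again (adjusted p = 0.0558). Nor did it pass with a term for replicate number in the model (adjusted p = 0.123).

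**Figure D3:**
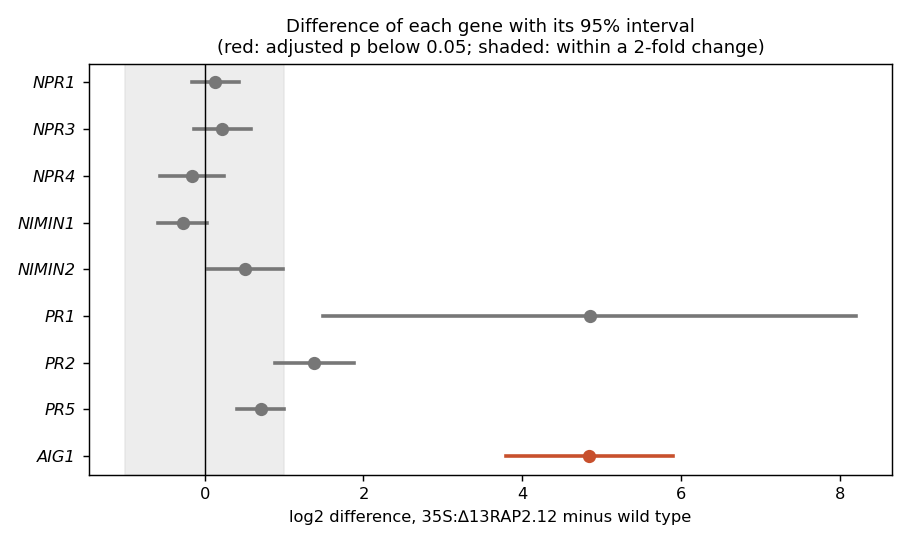
Log2 difference between the transgenic (35S:∆13RAP2.12) and wild-type arrays (horizontal axis) for each gene, with its 95% interval, grey shading for changes within 2-fold and red for an adjusted p below 0.05. The intervals of the 3 receptor genes, both NIMIN genes and PR5 lie inside the shading, that of AIG1 runs from 3.80 to 5.89, and that of PR1 is the widest, from 1.49 to 8.20.

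Counted together, 1 of the 9 genes was higher and 0 were lower, where 1.74% and 0.424% of all probe sets were called in those directions. At an unadjusted p below 0.05, 5 of 9 differed (NIMIN2, PR1, PR2, PR5 and AIG1), all higher, beside 16.2% of all probe sets in either direction. The transgenic arrays were wholly above the wild type for 7 of 9 genes and wholly below for 1, whereas 19.5% and 29.1% of all probe sets had such an order and 48.6% had either. With a prior variance that followed the level, 4 of 9 passed, the output genes PR1, PR2, PR5 and AIG1, beside 6.32% of all probe sets. At an adjusted p below 0.10 in the reported fit, 3 of 9 passed (PR2, PR5 and AIG1), beside 4.32% of all probe sets. The 9 genes were chosen with earlier results of these data known. Their counts are therefore no independent test against the shares of all probe sets. With 2 arrays against 2, an exact permutation test of a single gene cannot go below a two-sided p of 0.333.

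The profiles of PR1 and AIG1 were set against all other probe sets by the Euclidean distance between log2 values over the 4 arrays, each probe set centred on its own mean. The nearest to PR1 was MSRB7, a methionine sulfoxide reductase gene, at a distance of 1.66. MSRB7 was also uneven in the wild type, at 5.55 and 8.06, and was at 10.35 and 10.18 in the transgenic rosettes (adjusted p = 0.160). Next came AT4G10265 at a distance of 1.73 and NATA1, an acetyltransferase gene, at 1.97. AIG1 was the 7th nearest to PR1, at 2.15. The nearest to AIG1 were AT1G29020 at 0.44, CHI (AT2G43570) at 0.58 and AT5G66985 at 0.61, and PR1 ranked 138th. PR2 and PR5, with smaller differences of 1.38 and 0.70, were farther from PR1, ranked 572nd and 1388th. Values were not scaled, so the distance reflects the size of a change and not only its pattern. These distances rest on 4 arrays and describe likeness only.

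Loci beside AIG1 on chromosome 1 did not share its behaviour as a block. Of these loci, AT1G33910, PP2-A4 and AT1G33940 lay under the wild-type lower quartile of 4.76 on every array, so their levels may be background. AT1G33950, the locus just before AIG1 in the order of the reference table, rose from 3.02 and 3.12 to 5.71 and 5.05 (log2 difference 2.31, SE 0.25, adjusted p = 0.0283). In the wild type it lay under that lower quartile, so the size of this rise is not determined. AT1G33970, just after AIG1, was at 11.00 and 10.88 against 10.62 and 10.87, with the nearest arrays of the groups almost level (difference -0.19, adjusted p = 0.590). AT1G33930, a few loci before AIG1, fell from 9.28 and 9.16 to 7.78 and 7.85 (difference -1.40, SE 0.12, adjusted p = 0.0163). Without replicate 1 and replicate 2 of the transgenic arrays AT1G33930 did not pass (adjusted p = 0.0820 and 0.0638). A list of 13 loci was set around AIG1 as members of its protein family, which the reference table leaves mostly without symbols. Of these, 1 was higher, 1 was lower and 11 did not pass, with a median of 0.12. Over all probe sets, 1.74% were called higher and 0.424% lower. Most of the 13 were low, and only 3 were left when low probe sets were removed. At such levels a locus without a call may still have changed. Leaving out wild type replicate 1 gave a median of 0.20 and leaving out wild type replicate 2 gave 0.04. Leaving out transgenic replicate 1 gave 0.24, and its sign turned, to -0.02, when transgenic replicate 2 was left out. Reads by probes shared between similar loci cannot be told apart, since no source used here gives the probe sequences.

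**Figure D4:**
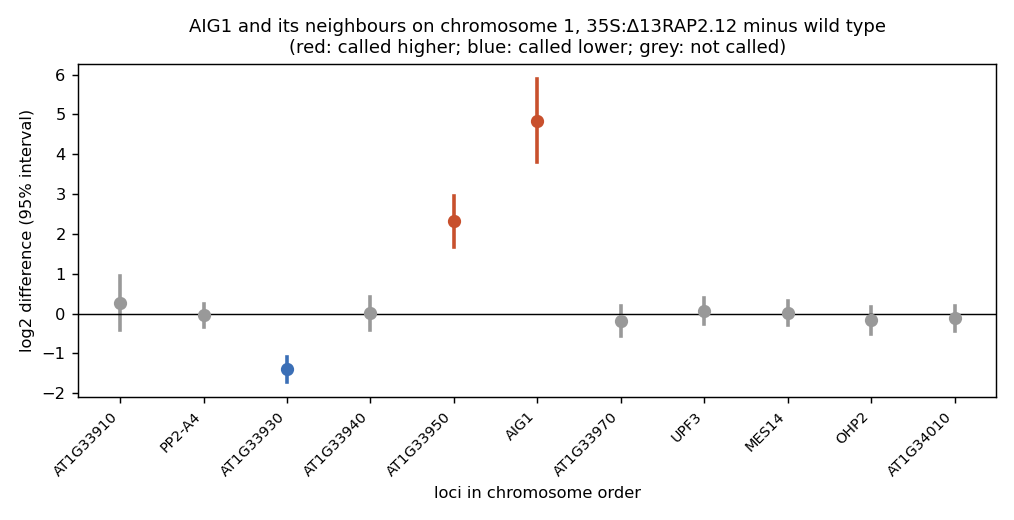
Log2 difference with its 95% interval (vertical axis) for AIG1 and the measured loci around it, in chromosome order (horizontal axis), with red for called higher, blue for called lower and grey for not called. AIG1 and AT1G33950 stand above 0, AT1G33930 below it, and the intervals of the other 8 loci include 0.

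The closest relatives of the PR genes did not pass. Of 6 such loci 0 were higher and 0 lower (smallest adjusted p = 0.272), with 1 at an unadjusted p below 0.05 and a median of 0.07. Over all probe sets 2.17% were called and 16.2% had an unadjusted p below 0.05, so these counts are not particular to the relatives. The counts of calls in the lists that follow stand beside 1.74% called higher and 0.424% called lower over all probe sets. The median ranged from -0.05 without replicate 2 of the transgenic arrays to 0.14 without wild type replicate 2. PRB1, a basic relative of PR1, was at 5.52 on both wild-type arrays and at 5.92 and 5.58 in the transgenic rosettes (difference 0.23, adjusted p = 0.556). Of the glucanase genes near PR2, BG1 differed by 0.35 (adjusted p = 0.272) and BG3 by -0.71 (adjusted p = 0.308). The thaumatin-like gene TLP-3, close to PR5, differed by -0.70 (adjusted p = 0.354).

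Genes for proteins that work with NPR1 were mostly flat. Of 14 on that list, 1 was higher and 0 were lower, and the median was 0.0004, between -0.03 without replicate 1 of the transgenic arrays and 0.05 without wild type replicate 1. The 7 TGA factors TGA1 to TGA7, through which NPR1 reaches promoters, differed by -0.23 (TGA3) to 0.40 (TGA7), and none passed. GRX480, a glutaredoxin that binds TGA factors, was at 5.47 and 5.12 in the wild type and rose to 7.72 and 7.32 (difference 2.22, SE 0.21, adjusted p = 0.0206). Without replicate 1 of the transgenic arrays it did not pass (adjusted p = 0.0567). TRXH5, a thioredoxin that reduces NPR1, differed by 0.95 (adjusted p = 0.0911). NIMIN3, the remaining NIMIN gene on the list, differed by -0.06 (adjusted p = 0.911). Of AT4G26120, BOP1 and BOP2, listed as further genes of the NPR family, none passed, and AT4G26120 had the smallest p at a difference of 0.56 (adjusted p = 0.303).

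Other genes that respond to salicylic acid were split. Of 9 WRKY transcription factors of the response, 2 were higher and 0 lower, with a median of 0.59. WRKY59 rose by 1.46 (SE 0.17, adjusted p = 0.0336), from a low wild-type mean of 3.91, and WRKY18 by 1.03 (SE 0.13, adjusted p = 0.0468). Both calls were lost when either transgenic array was left out, with adjusted p of 0.107 and 0.0600 for WRKY59 and 0.171 and 0.153 for WRKY18. WRKY70, which acts downstream of NPR1, was at 11.16 and 11.23 against 11.16 and 11.29 (difference 0.03, adjusted p = 0.924). WRKY54 was the only WRKY gene of the 9 with a negative difference, at -0.63 (adjusted p = 0.150). Of 9 further induced genes, 2 were higher and 0 lower, with a median of 0.47. DLO1, an oxygenase that hydroxylates salicylic acid, rose by 2.57 (SE 0.15, adjusted p = 0.00620), and GRXS13, a glutaredoxin, by 2.05 (SE 0.27, adjusted p = 0.0483). GRXS13 did not pass without replicate 1 of the transgenic arrays (adjusted p = 0.0637). PCC1, LURP1 and ACD6, which are also tied to this response, were near the top of the scale in the wild type. They differed by -0.08, -0.28 and -0.26, and none of them passed. The rest of this list did not pass either. DMR6 differed by 0.86 (adjusted p = 0.0775), AED1 by 0.81 (adjusted p = 0.0632), NUDT6 by 0.47 (adjusted p = 0.171) and WAK1 by -0.06 (adjusted p = 0.883).

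Upstream and neighbouring pathways were set beside these genes. Of 11 genes of salicylic acid synthesis and its regulators, 3 were higher, 0 were lower and 8 did not pass. The median was 0.59, with differences from -0.27 to 3.48. ICS1, which makes the precursor isochorismate, rose by 0.84 (adjusted p = 0.0493) and PBS3, which acts after it, by 1.57 (adjusted p = 0.0105). FMO1, an enzyme of systemic resistance, rose by 3.48 (adjusted p = 0.0385). Its wild-type mean of 4.00 lay under the lower quartile of 4.76, and its transgenic arrays were apart, at 8.08 and 6.88. The size of the rise of FMO1 is thus not determined. The call of ICS1 was lost when arrays were centred on their medians (adjusted p = 0.0513) and when either transgenic array was left out (adjusted p = 0.205 and 0.165), and that of PBS3 without replicate 1 of them (adjusted p = 0.0605). Of 8 output genes of jasmonate and ethylene, 1 was higher and 0 lower, with a median of 0.64 (1.11 without replicate 2 of the transgenic arrays). That gene was PR3, a basic chitinase, which rose from 5.83 and 5.34 to 8.90 and 9.03 (difference 3.38, SE 0.20, adjusted p = 0.00651). PR4 and PDF1.2A, further markers of that branch, differed by 0.35 (adjusted p = 0.315) and 2.22 (adjusted p = 0.251), and the wild-type arrays of PDF1.2A were far apart, at 5.99 and 3.90. Of 7 genes for chaperones of the endoplasmic reticulum and for secretion, a process that PR proteins need, 1 was higher and 0 lower. The median was -0.09 (-0.15 without replicate 1 of the transgenic arrays and -0.14 without wild type replicate 2). The difference was positive for 2 of the 7 and negative for 5. Among the negative ones, BIP1 differed by -0.47 and BIP2 by -0.25, and neither passed (adjusted p = 0.197 and 0.424). BIP3, a stress-induced chaperone, rose by 2.61 (adjusted p = 0.0296) but did not pass when either transgenic array was left out (adjusted p = 0.0913 and 0.0651). Each call in the lists was lost in the fits that left out a wild-type array. Those fits called few or no probe sets on the whole array, so the loss is not particular to these genes.

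**Figure D5:**
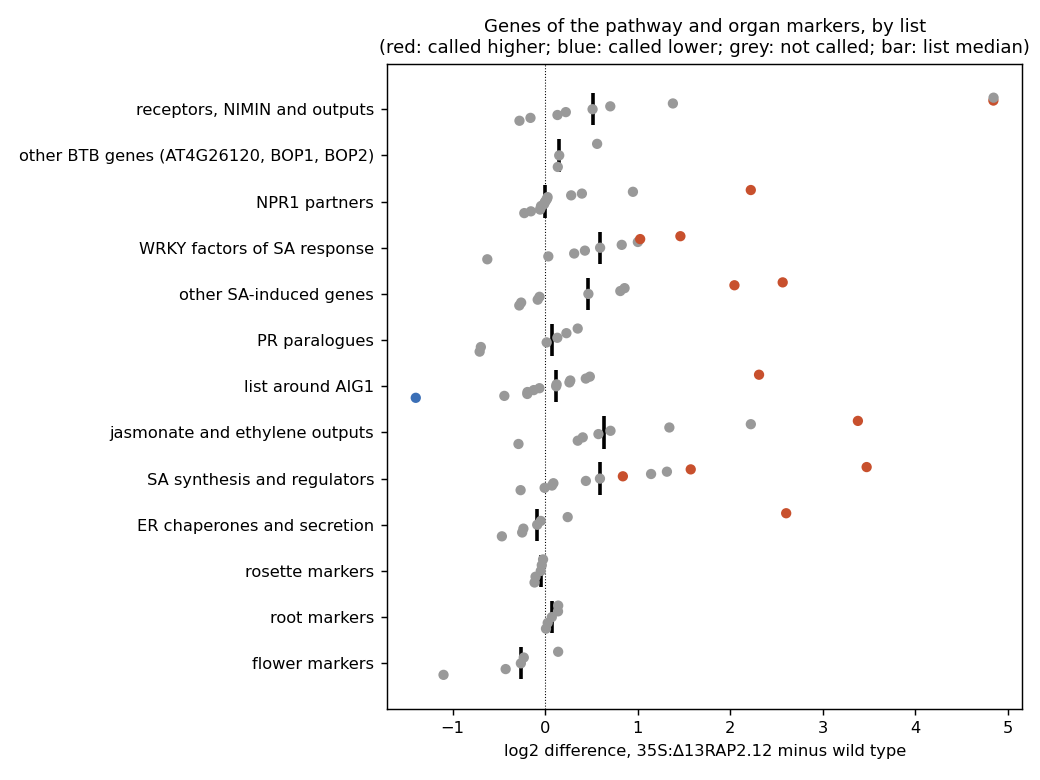
Log2 difference between the transgenic (35S:∆13RAP2.12) and wild-type arrays (horizontal axis) for the 9 genes and for each list of other genes (rows), with red for called higher, blue for called lower, grey for not called and black bars for list medians. The points of AIG1 and PR1 lie together at 4.85, beyond all genes of the other lists, and the NPR1 partners centre on 0.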

How the data were processed

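The deposited values are log2 expression levels made by the authors with RMA from Affymetrix arrays, per the submitters' processing notes, and the scale was taken from the range of the values. No source used here names the software, its version or how probes were grouped. All 4 columns were used. Of 27826 loci, 27241 matched the RefSeq gene table of assembly TAIR10.1, used for symbols and gene order only. A linear model with group as its only term was fitted to every probe set (limma 3.58.1, R 4.3.3; 2 residual and 2.55 prior degrees of freedom), with two-sided p-values adjusted by Benjamini-Hochberg across the array, a threshold of 0.05 and no filter. Errors of differences are moderated standard errors. The labels do not say that replicates were separate plants, so a p-value covers only the spread among these arrays, which may be technical.

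The genes and lists were chosen with earlier results of these data known. Beyond the 9 genes, the text names up to 4 called members of a list, or the one with the smallest p, and relatives of the output genes. The TGA factors, TRXH5, NIMIN3, WRKY54, WRKY70, PCC1, LURP1, ACD6, PR4, PDF1.2A, AIG1 neighbours and organ markers were named after their values were seen. So were DMR6, AED1, NUDT6, WAK1, BIP1 and BIP2. Alternatives were a replicate block, an intensity trend for the prior variance, repeated quantile normalization, centring of arrays on their medians, removal of probe sets in the lowest 25% by mean level, each array left out, and a threshold of 0.10. The fit was tested on simulated data (27826 genes, 200 of them changed, 2 against 2 arrays, noise drawn from the fitted prior variance). It recovered 2.40% of planted log2 changes of 1, 74.8% of 2 and 96.8% of 4. The share recovered depends on how many genes change, so these values need not hold for the arrays here. Figures were drawn with matplotlib 3.10.9.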

Additional observations from a re-analysis of the deposited data

How the results depend on the processing

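Over all probe sets, the 603 calls became 1759 with an intensity trend, 59.1% of them higher against 80.4%, and 1203 at a threshold of 0.10. They ranged from 0 to 315 with each array left out. The number of the 9 genes called, 1 as reported, was 2 with arrays centred (AIG1 and PR2), 2 with low probe sets left out (AIG1 and PR5, with PR2 removed by the filter), 4 with the trend and 3 at a threshold of 0.10, and it ranged from 0 to 1 with each array left out. PR1 at 4.85, PR2 at 1.38 and PR5 at 0.70 gained a call with the trend, PR2 at 1.35 with centring, and PR5 at 0.70 without low probe sets. AIG1 ranged from 4.42 to 5.27 with each array left out. No difference of the 9 genes changed sign.

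Pairing by replicate number has no basis in the labels, and replicate 1 deviations correlated at 0.0349 between the groups. With the replicate block, 515 probe sets and 2 of the 9 genes were called, as PR2 at 1.38 then passed (adjusted p = 0.0411). Of the 13 genes called across the 9 genes and the lists, 9 remained called with the block, and WRKY18 (adjusted p = 0.0712), WRKY59 (0.0568), GRXS13 (0.0600) and ICS1 (0.0921) did not.

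List medians ranged with each array left out from 0.0509 to 0.3475 for AT4G26120, BOP1 and BOP2, -0.0258 to 0.0548 for NPR1 partners, -0.053 to 0.1352 for relatives of the PR genes, -0.0231 to 0.2437 for the list around AIG1, 0.5572 to 1.1071 for jasmonate and ethylene outputs and 0.4228 to 0.8442 for salicylic acid synthesis. They ranged from -0.1496 to -0.08 for chaperones and secretion, -0.1171 to -0.0265 for rosette, -0.0389 to 0.2096 for root and -0.4252 to -0.1317 for flower markers. Without low probe sets they were -0.2333 for relatives of the PR genes (4 loci left), -0.4419 for the list around AIG1 (3 left) and -1.0995 for flower markers (AG alone), and fewer genes measured accounts for these shifts. With quantile normalization applied again the chaperone median was -0.0408. The cause of the other shifts was not tested. Signal over background is unknown, which limits PR2, PR1 and AIG1 in the wild type most.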

Other observations

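The probe sets with the next largest gaps between the wild-type arrays after PR1 were AT1G07885, at 5.64 and 8.96, AT5G46295, at 3.84 and 6.80, and AT1G49700, at 3.61 and 6.50. Their levels on the arrays labelled 35S:∆13RAP2.12 were 6.83 and 6.97 for AT1G07885, 5.76 and 5.91 for AT5G46295, and 3.37 and 3.57 for AT1G49700. None of these 3 passed between the groups (adjusted p = 0.901, 0.848 and 0.505), and for AT1G07885 and AT5G46295 the transgenic values lay between the wild-type values. Gaps of at least 2-fold between arrays of the same group were found for 444 probe sets in the wild type and 446 in the transgenic rosettes.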
